A study of Oryza sativa Indica Group with 12 samples.

Results

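Rice anthers before meiosis were compared with anthers in meiosis. The comparison used 6 of the 12 arrays of the series: 3 of pre-meiotic anthers (PMA) and 3 of meiotic anthers (MA). They were chosen by their sample titles alone, and every rice probe set of the Affymetrix rice array was compared, 57258 in all. The plants were wild type field-grown indica rice, variety IR64, with no treatment, mutation or transgene in any group. PMA came from anthers 350 to 450 µm long, taken from the first anther-like structure to the end of interphase before meiosis. MA came from anthers 500 to 850 µm long, in which the meiocytes were between leptotene and tetrads. The other 6 arrays are of anthers whose pollen was single-celled (SCP, 3 arrays) or tri-nucleate (TPA, 3 arrays), which entered the fit and are cited where they show what followed. Whole anthers bulked from several plants were used, so that a signal is a sum over meiocytes, tapetum and the outer walls of the anther, and no cell type was isolated.

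In an anther, the meiocytes (pollen mother cells) lie in the centre and are surrounded by the tapetum, the innermost wall layer. On entry to meiosis the meiocytes replicate their DNA a last time, break and pair their chromosomes, join homologues along the synaptonemal complex, and recombine. The tapetum meanwhile turns secretory and makes lipids, phenolics and proteins for the wall of the pollen to come. Anthers of grasses also hold a particular set of small RNAs, which argonaute proteins bind and which Dicer enzymes cut from longer RNA.

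The measured quantity is the deposited GC-RMA signal, a background-corrected and normalized brightness on the linear scale, called signal here. The study took a gene as absent at a signal of 10 or less. Folds compare a probe set with itself, and levels are not ranked between genes. Differences were tested on the log2 scale with limma over all 12 arrays, and the adjusted p stands for the Benjamini-Hochberg value over all 57258 probe sets. A probe set was called where the adjusted p did not exceed 0.005 and the fold reached 2, and "rose" or "fell" is written of called genes. A probe set called higher was counted as switched on where the PMA mean was 10 or less and the MA mean at least 20. The reverse case was counted as switched off. Where all 3 arrays of a stage lay at or under 10, the fold is given as a lower bound against a signal of 10. Where the mean but not each array lay there, the fold rests on values near that limit and is approximate. Gene classes were counted with 1 probe set per gene, the brightest.

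The arrays of a stage resembled each other closely. Pearson's r of log2 signal, across probe sets, lay at 0.989 to 0.992 for pairs of PMA arrays, at 0.998 for pairs of MA arrays and at 0.950 to 0.961 across the stages. The PMA arrays were more spread, with a median SD of 0.24 on the log2 scale against 0.10 in MA over probe sets with a mean over 10. PMA array 2 stood somewhat apart: it was the lowest PMA array in 941 of the 1895 probe sets called higher, and the highest in 973 of the 1735 called lower. Without it, 1526 were called higher and 1332 lower. The count of falls dropped most without MA array 1 or 2, to 1047 and 1087. Another person carried out the MA arrays than those of the other stages, so that person and stage cannot be told apart. Marker genes of meiocytes and tapetum were measured in both stages, and their summed signals are carried by the probe sets with the highest signal. The 12 meiocyte markers summed to 10432 to 12361 in PMA and 5298 to 5722 in MA, with 3 called higher and 3 lower. Without MEL1 their sum went the other way, from 3342 to 4066 in PMA to 5249 to 5657 in MA, and the median log2 difference of the 12 was -0.04. The 9 tapetum markers summed to 10593 to 13069 in PMA and 23301 to 24810.3 in MA, with 2 higher, 1 lower and a median of 0.73, and without CYP703A3 to 10499 to 12996 and 15334 to 17275. Of 6 markers of mature pollen, 4 lay at or under 10 in both stages and 1, EXPB9, rose. The 5 markers of green tissue summed to 889 to 2188 in PMA and 2884 to 3011 in MA, with 0 called and a median of 1.21. Without CAB2R they summed to 808 to 1318 in PMA and 1778 to 1936 in MA. The 11 genes of floral meristem and young organ identity summed to 3238 to 4077 in PMA and 1283 to 1361 in MA. Of them 4 were called lower and 7 were not called, with a median of -0.20. Without FON1 the sums were 1321 to 1688 and 1212 to 1304. Some markers, such as MEL1 and CYP703A3, are also members of the classes below, so that these sums are not separate from the classes. The part of the sums in any result was not tested.

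On entry to meiosis, 1895 probe sets were called higher (3.31% of those tested) and 1735 lower (3.03%), 6.34% in either direction. The rises were larger than the falls, with a median fold of 4.40 against 3.18, and 487 rises against 132 falls were over 10-fold. All 3 MA arrays lay above all 3 PMA arrays for 13.9% of the probe sets and below them for 19.3%. The median log2 difference over all probe sets was -0.00, and -0.10 over the 24732 with a mean over 10 in PMA or MA. Of the probe sets called higher, 450 (0.786% of those tested) were switched on, and 222 (0.388%) of those called lower were switched off. In 383 of the 450, each of the 3 PMA arrays was at or under 10, and in 176 of the 222 each MA array was. Most of the strongest movers cannot be named: 40 of the 50 largest rises and 40 of the 50 largest falls carry neither a gene name nor an informative description in the tables used here. Of the probe sets switched on 61 have one, and of those switched off 25. Some genes, such as SWEET14, are there with more than 1 probe set.

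**Figure D1:**
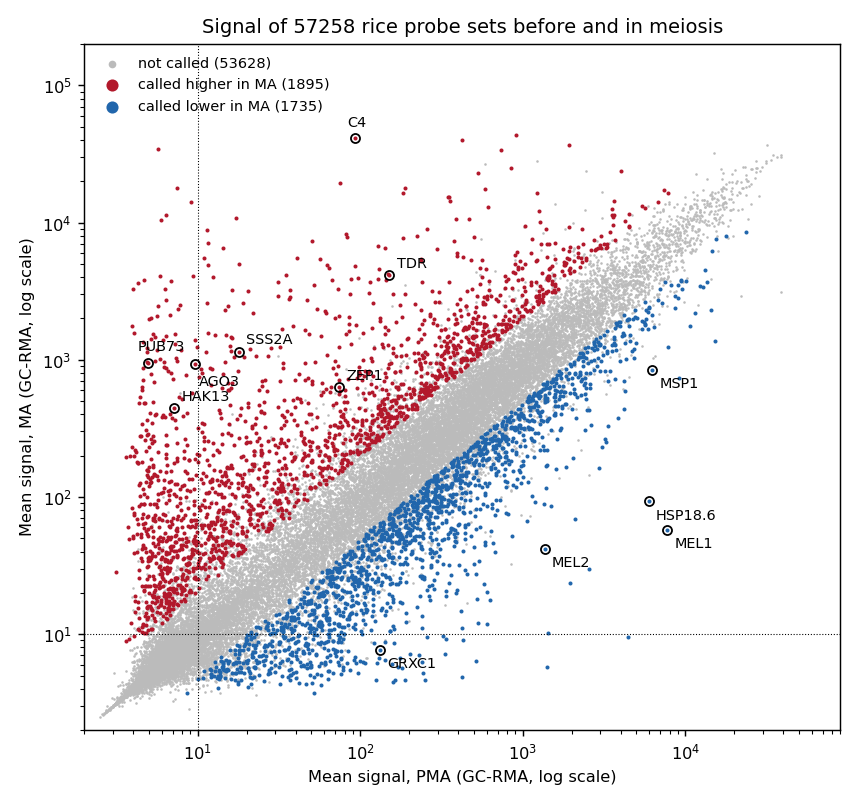
Mean signal of 57258 rice probe sets in PMA (x axis) and MA (y axis), both log scales, 1 point per probe set and means of 3 arrays. The 1895 called higher in MA are red and the 1735 called lower blue. The dotted lines mark a signal of 10. Red points left of the vertical line with MA means of 20 or more are the probe sets switched on.

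The genes were grouped into 27 classes by name and description. Only 2000 probe sets entered a class, and 4413 carried a name or informative description at all. A class therefore holds the members that could be named, not the whole rice family. Among all 17888 genes with 1 probe set each, 6.19% rose and 4.51% fell, 10.7% in either direction, and the counts of a class are read against these shares. Classes with over 15% of their genes higher were pollen wall and lipid genes, defence proteins, the ubiquitin system, cytochromes P450, NAC factors and photosynthesis genes. Classes with over 12% lower were small RNA genes, meiotic chromosome genes, DNA replication genes and zinc finger genes. Some members were found through a list that the study had chosen on these same arrays, in which 10.9% of 986 probe sets rose and 6.19% fell, so that such members are not independent evidence of a direction. Others were found through a published list of pollen mother cell genes, in which 15.9% of 917 probe sets rose and 10.6% fell, among them 13 of the meiotic, 20 of the pollen wall, 41 of the RNA-binding and 73 of the ubiquitin genes.

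**Figure D2:**
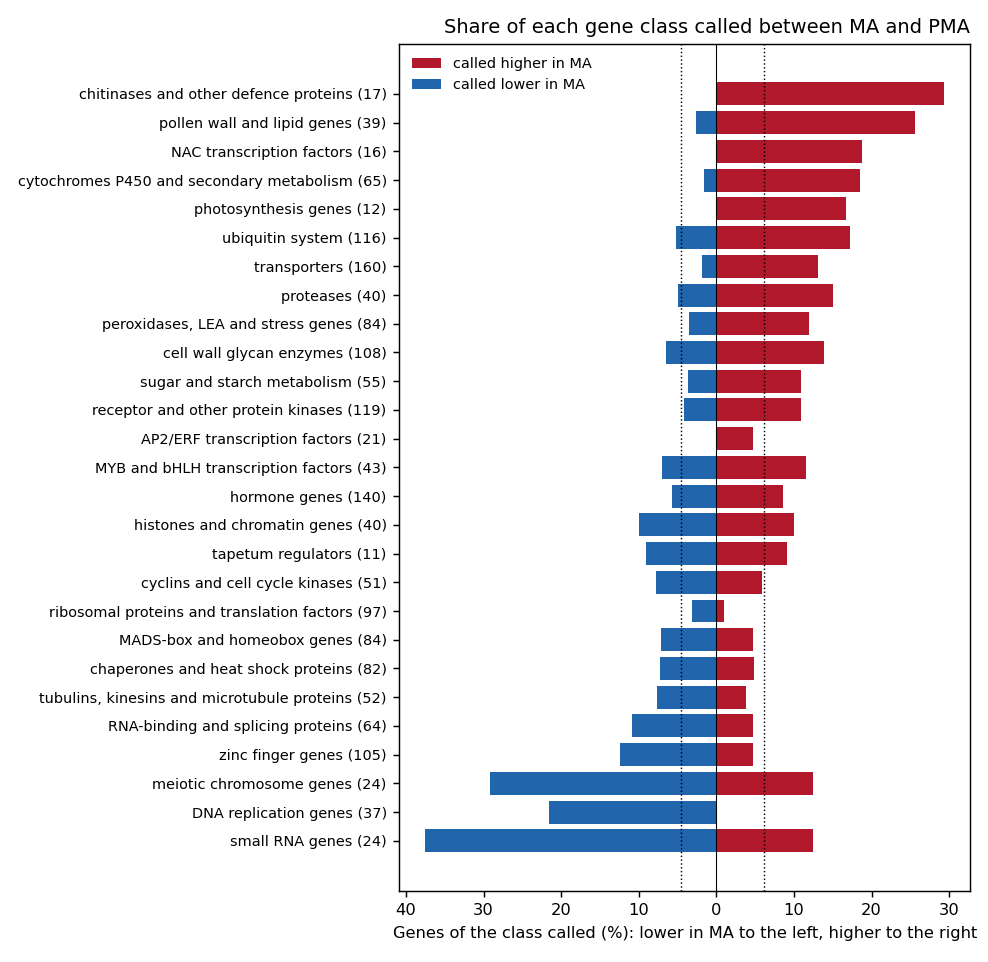
Share of each of 27 gene classes called between the stages (x axis, %), higher in MA to the right in red and lower to the left in blue, 1 probe set per gene and the number of genes in brackets. The dotted lines mark the shares of all genes, 6.19% higher and 4.51% lower; small RNA, meiotic chromosome and DNA replication genes reach farthest to the left.

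Of 24 genes for argonautes, Dicer enzymes, RNA-dependent RNA polymerases and their partners, 9 fell (37.5%) and 3 rose (12.5%). The median log2 difference of the class was -0.68. Of the 13 argonautes, 7 fell and 3 rose.

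MEL1, an argonaute of the germ cells that rice needs to carry them through meiosis, showed the largest difference of the class. Its signal was 8295, 7090.4 and 7762 in the 3 PMA arrays and 49.03, 64.2 and 58.1 in the 3 MA arrays. It fell 136-fold (log2 difference -7.08, standard error 0.43, adjusted p = 9.28e-06) and stood at 16.1 in SCP and 44.3 in TPA. In bulked anthers, fewer cells of a type and less RNA per cell cannot be told apart, here or for any gene below. AGO3 went the other way. It had 8.57, 11.8 and 8.41 in PMA and 1007, 922 and 847 in MA, and thus went from near the limit of detection to a high level in every MA array. The log2 difference was 6.61 (standard error 0.45, adjusted p = 1.77e-05), and 6.45 with signals under 10 set to 10, since 2 of the 3 PMA arrays lay under 10. The mean was 64.2 in SCP and 11.02 in TPA. AGO18, an argonaute of grasses, rose from 29.03, 17.04 and 50.1 to 1247, 1197 and 1255 (42.3-fold, adjusted p = 6.11e-05) and kept 1052 in SCP before it was at 24.6 in TPA. AGO14 was switched on, from 5.43, 4.77 and 4.81 to 40.1, 37.5 and 31.4, at least 3.61-fold (adjusted p = 0.0003). Each of these 3 had its highest mean of the 4 stages in MA, which choosing genes that rose in MA favours.

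The study measured AGO3 and MEL1 also by real-time PCR on the same RNA, and its primers are shown because they mark the transcripts of the argonautes with the largest rise and the largest fall of the class, 5′ to 3′.
AGO3 forward: ggtctctcgttgccaggtactc
AGO3 reverse: cggacaggtatcacaaccagaa
MEL1 forward: atccgcgcgaaccactt
MEL1 reverse: ttttgactcaggattgattgaa

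The argonautes that carry microRNAs in most tissues fell by smaller factors. AGO1D had 13804, 11744 and 17703 in PMA and 2251, 2379 and 2320.3 in MA, a 6.14-fold fall (adjusted p = 0.000129). AGO1B went from 12245, 15455 and 11046 to 3366, 3441 and 3413 (3.75-fold, adjusted p = 5.84e-06) and AGO1 fell 2.37-fold (adjusted p = 0.000114). AGO1A, of the same group, had 1870.4, 1932 and 2197 and 1702, 1666 and 1669, and its log2 difference of -0.25 did not pass (adjusted p = 0.279). AGO2 fell from 3295, 3389 and 3222 to 1130.3, 1204 and 1033 (2.95-fold, adjusted p = 6.93e-06), with tight replicates in both stages. OsPNH1, whose Arabidopsis relative PINHEAD acts in the shoot meristem, fell 2.97-fold (adjusted p = 0.00133), and AGO4B, of the argonautes that guide DNA methylation, 2.97-fold (adjusted p = 0.00113). A Dicer gene, LOC_Os10g34430, fell from 341, 127 and 351 to 52.1, 46.9 and 64.1 (4.59-fold, adjusted p = 0.00305), and RDR4, an RNA-dependent RNA polymerase, 3.59-fold (adjusted p = 1.92e-05). Another RDR4 probe set, not in the class count, was switched off. It went from 26.3, 59.3 and 24.8 to 4.65, 4.64 and 4.66, at least 3.38-fold (adjusted p = 0.000135). Of the rest of the pathway, DCL2A, DCL4, RDR2, SHL2 and the double-stranded RNA-binding genes DRB1 and DRB4 were not called, and DRB1 had 3756, 3477 and 3472 in PMA and 2297, 2341 and 2552 in MA. The calls of AGO4B and OsPNH1 were lost without PMA array 2 or 3 and without MA array 1 or 2, that of OsPNH1 also without MA array 3, and that of the Dicer gene without any 1 array other than PMA array 2.

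**Figure D3:**
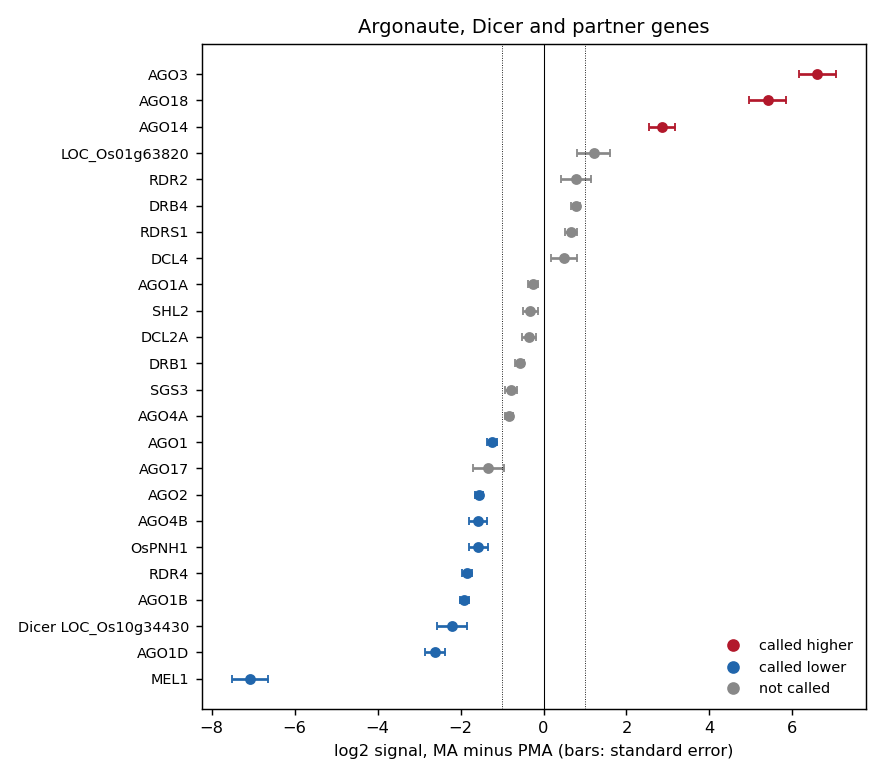
Log2 difference of signal, MA minus PMA (x axis), of the 24 small RNA genes, with standard errors from limma over 12 arrays; dotted lines mark a 2-fold change. AGO3, AGO18 and AGO14 lie on the right, 9 genes called lower lie on the left, and MEL1 is the farthest at -7.08.

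Of 24 genes grouped as meiotic chromosome genes, 3 rose (12.5%) and 7 fell (29.2%), and the median log2 difference was -0.67. Those 7 include the argonaute MEL1, already counted among the small RNA genes, and MEL2, an RNA-binding protein. ZEP1, which spans the synaptonemal complex between paired homologues, had 79.3, 57.3 and 86.7 in PMA and 569.7, 694 and 633 in MA. This is an 8.60-fold rise (log2 difference 3.10, standard error 0.33, adjusted p = 0.000249), and the mean was 19.8 in SCP and 6.24 in TPA. PAIR3, a protein of the chromosome axis, rose from 37.3, 30.7 and 28.9 to 121, 110.4 and 136 (3.79-fold, adjusted p = 6.03e-06) and was at 6.47 in SCP. SDS, a cyclin of meiosis in Arabidopsis, had 23.9, 23.6 and 8.98 in PMA, with array 3 below the others, and 77.6, 88.5 and 88.7 in MA. SDS rose 4.94-fold (adjusted p = 0.00117), a call that was lost without any of the MA arrays.

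PAIR2, the axis protein of rice that is needed for pairing, missed the limit with a large difference. Its signal was 761, 435 and 669 in PMA and 3477, 3679 and 3516 in MA, without overlap, a log2 difference of 2.56 (standard error 0.54, adjusted p = 0.0105). With only the 6 arrays of the 2 stages in the fit the adjusted p was 0.00279, under the limit. Both DMC1 copies, the recombinases of meiosis, were not called. DMC1A had 734, 604 and 368 and 450.4, 448 and 473 (adjusted p = 0.679) and DMC1B 856, 491 and 462 and 343, 391 and 349.6 (adjusted p = 0.091). The copies are nearly identical, and their probe sets may each read both. MRE11, MND1, HEI10 and MSH4 were not called.

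The genes that fell are given next. MEL2, an RNA-binding protein needed by rice germ cells to enter meiosis in time, had 1154, 1401 and 1529 in PMA and 37.00, 51.4 and 37.1 in MA, a 32.7-fold fall (log2 difference -5.03, standard error 0.29, adjusted p = 6.75e-06). PHS1, which maize needs for the pairing of homologues, fell from 451, 212 and 252 to 34.8, 42.1 and 34.2 (7.84-fold, adjusted p = 4.15e-05). RAD21-4, a cohesin subunit of rice meiosis, had 156, 91.2 and 223 in PMA, a spread of arrays wider than most, and 19.9, 18.4 and 18.57 in MA (7.76-fold lower, adjusted p = 0.000391). AM1, needed in maize to leave the mitotic cycle, fell 2.58-fold (adjusted p = 0.000253). SPO11-2, of the enzymes related to the one that breaks DNA in meiosis, fell 2.30-fold (adjusted p = 0.00266) and MSH5, a crossover protein, 2.02-fold (adjusted p = 0.00435). The call of SPO11-2 was lost without PMA array 1 or 2 or MA array 1 or 2, and that of MSH5 without any 1 of the 6 arrays.

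Of 37 genes of DNA replication 8 were called lower (21.6%), 0 were called higher by limma, and the median log2 difference was -0.75. At an unadjusted p under 0.05, limma gave 24 lower and 2 higher. ORC3, of the complex that marks origins of replication, had 146, 97.1 and 126 in PMA and 22.6, 25.3 and 24.1 in MA, a 5.06-fold fall (adjusted p = 0.000386). ORC1, of the same complex, fell 2.35-fold (adjusted p = 0.000894). POLD1, the catalytic subunit of DNA polymerase delta, went from 363, 309 and 482 to 90.5, 87.7 and 101 (4.07-fold, adjusted p = 0.000329). Subunits of the replicative helicase fell as well, MCM5 from 1152, 849 and 1269 to 309, 315 and 321 (3.41-fold, adjusted p = 0.000984) and OsMCM6 2.91-fold (adjusted p = 0.00433). RPA1A, which coats single-stranded DNA, fell 3.13-fold (adjusted p = 0.00069). MCM5 and OsMCM6 lost their calls without MA array 1, 2 or 3, OsMCM6 also without PMA array 1 or 3, and the class count was 5 without any 1 of these MA arrays. With only the 6 arrays fitted it was 3.

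Cyclins and cell cycle kinases moved both ways. Of 51 genes 3 rose and 4 fell, shares of 5.88% and 7.84% that lie near those of all genes. CYCB1-3, a B-type cyclin of the entry into division, had 48.3, 63.04 and 76.5 in PMA and 4785, 4699.9 and 5204 in MA. It rose 79.5-fold (log2 difference 6.31, standard error 0.79, adjusted p = 0.000643) and had returned to 52.3 by TPA. Its 3 SCP arrays had 49.4, 69.4 and 582, array 3 far above the others. Of 9 D-type cyclins, which drive the start of the mitotic cycle, 3 fell. CYCD3-2 went from 175, 359 and 182, with array 2 the highest, to 37.5, 39.2 and 27.5 (6.56-fold lower, adjusted p = 0.000121), and CYCD4-2 from 196, 311 and 172 to 58.7, 66.00 and 79.05 (3.25-fold lower, adjusted p = 0.000534). The kinase inhibitors of the KRP family split: KRP4 rose 3.05-fold, from 536, 726 and 461 to 1742, 1593 and 1833 (adjusted p = 0.000114), and KRP5 fell 3.85-fold, from 1370.1, 1683 and 1244.8 to 372, 368 and 367 (adjusted p = 0.00083). A gene annotated as a mitotic checkpoint protein, LOC_Os07g39950, was switched on, from 7.04, 6.93 and 9.497 to 78.7, 75.1 and 86.3, at least 7.99-fold (adjusted p = 5.35e-07), and was back at 5.49 in SCP. Among 52 tubulin, kinesin and other microtubule genes 2 rose and 4 fell. KIN14O, a kinesin motor, was switched on from 7.49, 7.38 and 7.46 to 163, 191 and 193, at least 18.1-fold (adjusted p = 0.00016), and the kinesin KIN7J fell 6.79-fold, from 871, 942 and 961 to 130.5, 144 and 134 (adjusted p = 1.62e-05).

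Of 40 chromatin genes 4 rose and 4 fell, 2 without MA array 2. A pair of neighbouring genes with YDG/SRA domains, found in proteins that bind methylated DNA, moved in opposite directions. LOC_Os08g30900 rose from 89.9, 124 and 81.9 to 724, 731 and 867 (7.95-fold, adjusted p = 3.99e-05). LOC_Os08g30910 fell from 206, 179 and 277 to 48.97, 47.7 and 58.9 (4.20-fold, adjusted p = 0.000457). Probe sets for histone deacetylases HDA703 and LOC_Os02g12350, neighbours of nearly the same sequence that cannot be separated here, both rose, HDA703 from 12.3, 9.16 and 9.84 to 116, 154 and 135 (12.95-fold, adjusted p = 5.42e-06). Of 64 RNA-binding and splicing genes 7 fell (10.9%) and 3 rose, where the pollen mother cell list that holds 41 of them gave 10.6% lower. Without 1 array, 3 to 6 fell and 1 rose. LOC_Os05g13620, an RNA recognition motif protein, fell from 10897, 10168 and 13344 to 2198, 2147 and 2183 (5.24-fold, adjusted p = 0.0001). An LSM domain gene, LOC_Os05g51650, of the family that binds the small RNAs of splicing or decay, fell 3.69-fold (adjusted p = 3.99e-05). Ribosomal proteins and translation factors had the smallest share called of the 27 classes, with 1 of 97 higher (1.03%), 2 without PMA array 3, and 3 lower (3.09%), 1 without any 1 of the 6 arrays.

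Of 116 genes of the ubiquitin system 20 rose (17.2%) and 6 fell (5.17%), where all genes gave 6.19% and 4.51%. Most of these genes, 73 of 116, came from the pollen mother cell list, and the share that rose is close to the 15.9% of that list. A further source, for 35 of them, was the list the study chose on these arrays. The class marks proteins for destruction: F-box proteins choose the target, and SKP1 and cullins join them to the ligase. Of 52 F-box genes 12 rose and 3 fell, of 4 SKP1-like genes 2 rose, and of 3 cullins 2 rose, a count of 1 without MA array 3 or any of the PMA arrays. PUB73, a ligase of the U-box type, was switched on from 4.32, 6.17 and 4.38 to 989.8, 953 and 879.8, at least 93.96-fold (adjusted p = 0.000624). An F-box gene, LOC_Os05g46050, did likewise, from 5.47, 5.42 and 5.504 to 965, 1020.3 and 969, at least 98.5-fold (adjusted p = 6.81e-05), and LOC_Os12g40360 at least 51.9-fold (adjusted p = 2.8e-06). LOC_Os08g16710, annotated as OsFBX281, rose from 14.6, 11.8 and 9.97 to 646, 637 and 683 (54.6-fold, adjusted p = 3.75e-07). The SKP1-like gene LOC_Os07g43250 had 76.1, 38.4 and 86.4 and then 3509, 3650.0 and 4271 (60.1-fold, adjusted p = 0.000162), and the other, LOC_Os07g22680, 117, 60.4 and 77.9 and then 1632, 1577 and 1631 (19.7-fold, adjusted p = 0.000566). In 19 of the 20 genes that rose the MA mean was the highest of the 4 stages, and in 14 the TPA mean was at or under 10. Choosing genes that rose in MA favours the first count. The pollen mother cell list was drawn up by comparison with seedlings and tricellular pollen, which favours the second. A few F-box genes went off instead, such as LOC_Os04g13170, from 73.4, 39.4 and 35.5 to 6.18, 6.18 and 5.53, at least 4.68-fold lower (adjusted p = 3.22e-05).

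The tapetum list held 11 regulators, of which 1 rose and 1 fell. TDR, a bHLH factor that rice needs for tapetum breakdown, had 98.9, 127 and 227 in PMA and 3855, 3711 and 4834 in MA, a 28.97-fold rise (log2 difference 4.86, standard error 0.35, adjusted p = 2.24e-05), and stayed at 4311 in SCP. MSP1, the receptor kinase that limits the number of cells entering sporogenesis, fell from 5439, 7667 and 5625 to 842, 833 and 863 (7.29-fold, adjusted p = 0.00074). Its ligand TDL1A had 469, 500.3 and 258 in PMA and 410.1, 402 and 430.1 in MA and was not called (adjusted p = 1). The other bHLH factors of the tapetum were already expressed in PMA and missed the limit. TIP2 had 1562, 2014 and 2611 and 5559.7, 5562 and 6357 (adjusted p = 0.0245), UDT1 93.8, 74.1 and 179 and 32.4, 37.9 and 37.5 (adjusted p = 0.035), and EAT1 999, 306 and 1088 and 785, 898 and 935 (adjusted p = 1). TIP2 and UDT1 lay on opposite sides, TIP2 with MA above PMA and UDT1 below, while EAT1 overlapped. PTC1, which acts late in the tapetum, was at or under 10 on every array of both stages and reached 3201 in SCP.

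Of 39 genes of the pollen wall and its lipids 10 rose (25.6%) and 1 fell (2.56%), with a median log2 difference of 0.76. The falls were 2 without MA array 1 or 2 or PMA array 1 or 3. The MA anthers ran from leptotene to tetrads, so that the rises cannot be placed at a step of meiosis or after it. Of the 39 genes, 11 came from the list the study chose on these arrays and 20 from the pollen mother cell list. The largest fold was that of C4, an anther gene for a small lipid transfer-like protein. It had 167, 30.9 and 78.00 in PMA, with array 2 the lowest, and 44299, 38068 and 41579 in MA, a 558-fold rise (log2 difference 9.12, standard error 0.55, adjusted p = 8.18e-06). The difference was 9.714 without PMA array 1 and 8.496 without PMA array 2. C4 kept 40473 in SCP and was at 23.4 in TPA. Of 12 lipid transfer protein genes 4 rose. LOC_Os06g23360, annotated as LTPL70, went from 49.8, 28.3 and 26.4 to 4553, 4032 and 3886 (124-fold, adjusted p = 3.03e-06) and LOC_Os08g43240, as LTPL97, from 308, 84.7 and 155 to 14704, 16699 and 18203 (103-fold, adjusted p = 0.00015). Both had their highest mean in MA, with 69.8 and 1165 in SCP. A stilbene synthase-like gene, LOC_Os10g34360, of the family that includes the enzymes of sporopollenin precursors, rose from 58.6, 22.6 and 55.3 to 1609.7, 1544 and 1775 (39.2-fold, adjusted p = 8.93e-06), on its way to 29256 in SCP. PLA2-III, a secreted phospholipase, rose 11.4-fold (adjusted p = 4.08e-05). The gene that fell was LOC_Os11g45400, a glycerol-3-phosphate acyltransferase, from 916, 227 and 474 to 43.1, 37.5 and 21.8 (14.1-fold, adjusted p = 0.000599). The count of rises was 16 at an adjusted p of 0.05.

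**Figure D4:**
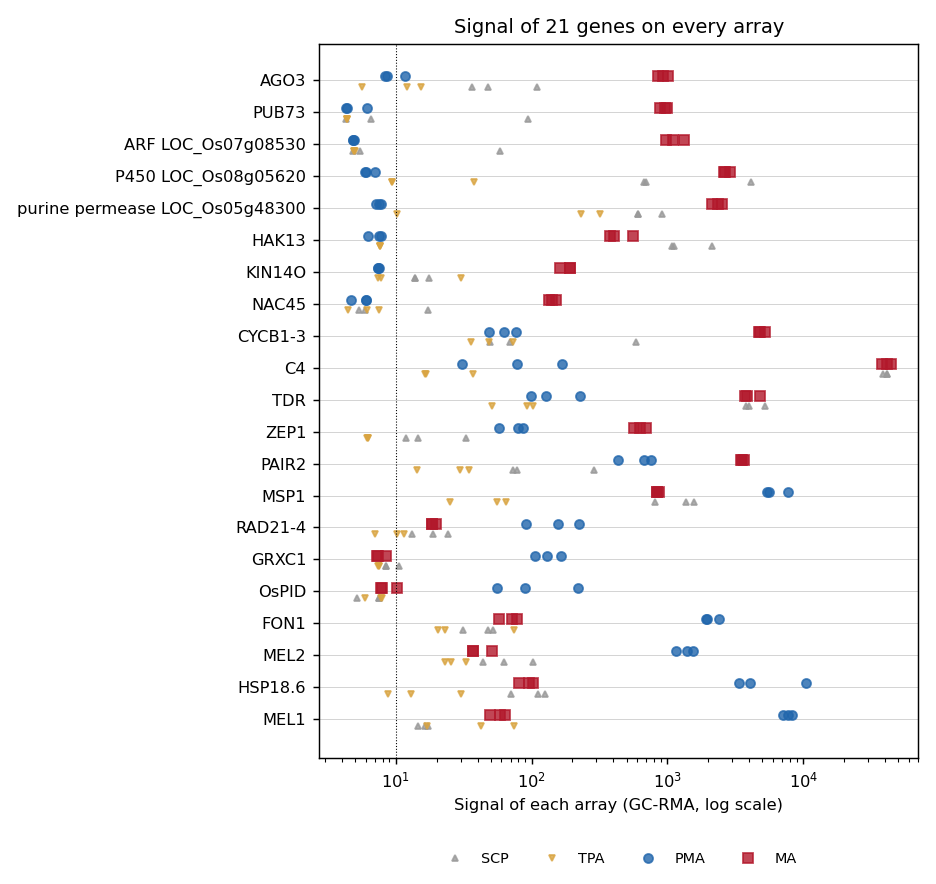
Signal of 21 genes on every array (x axis, log scale), 1 point per array, 3 arrays per stage; the dotted line marks a signal of 10. In the top 13 rows, from AGO3 to PAIR2, the MA arrays lie above the PMA arrays, and in the 8 rows below, from MSP1 to MEL1, they lie below them.

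Of 65 cytochromes P450 and other genes of secondary metabolism 12 rose (18.5%) and 1 fell (1.54%), with a median log2 difference of 0.07. The fall was lost without PMA array 2 or any of the MA arrays. LOC_Os08g05620, a cytochrome P450, was switched on from 5.93, 7.07 and 6.02 to 2865, 2615 and 2665, at least 271-fold (adjusted p = 6.49e-05). Its 3 SCP arrays had 692, 675 and 4091, so that the mean of 1819 is carried by array 3. CAD8C, of the family that makes lignin alcohols, rose from 91.3, 84.5 and 83.5 to 3124, 2853 and 3096 (34.98-fold, adjusted p = 9.93e-06) and was back at 85.2 in SCP. CYP99A2, of a cluster for diterpenes that defend rice, rose 11.1-fold (adjusted p = 5.88e-05), from 13.98, 29.5 and 13.5 to 195, 177 and 220.2. Defence proteins, such as chitinases, were a small class of 17, of which 5 rose (29.4%), with a median of 2.21. Cht3, a chitinase, was switched on from 6.90, 10.2 and 8.98 to 54.5, 46.1 and 84.04 (6.94-fold, adjusted p = 8.4e-05). Chia1d, of the largest rises on the array, was switched on from 5.85, 5.74 and 5.87 to 4091, 4313 and 3838. This was at least 408-fold (adjusted p = 5.32e-07). LOC_Os03g18850, of the Bet v I family of pathogenesis-related proteins, rose from 81.9, 43.2 and 97.1 to 582, 559.9 and 559 (8.09-fold, adjusted p = 0.000496).

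Genes that build and loosen cell walls moved both ways. Of 108 genes 15 rose (13.9%) and 7 fell (6.48%). Among those that fell, CESA2, a cellulose synthase, went from 482, 679 and 649 to 99.8, 137 and 124 (log2 difference -2.32, adjusted p = 1.69e-05), and the expansins EXPB17 and EXP16 fell 7.29-fold (adjusted p = 1.21e-05) and 7.78-fold (adjusted p = 4.9e-05). PMEI8, an inhibitor of pectin methylesterases, was switched off from 109, 201 and 65.6 to 3.41, 6.98 and 3.43, at least 11.3-fold (adjusted p = 7.11e-05). Among those that rose, LOC_Os05g35266, a galactosyltransferase, had 794, 300.4 and 733 in PMA and 13201, 13295 and 12570.1 in MA (23.3-fold, adjusted p = 0.000121). LOC_Os03g14140, of the Ole e I extensin-like family of pollen proteins, had 2985, 1015 and 1757 in PMA and 39153, 35905 and 35302 in MA (21.05-fold, adjusted p = 5.43e-05). The beta-glucosidases BGLU13 and BGLU6 rose 29.7-fold (adjusted p = 1.96e-06) and 20.8-fold (adjusted p = 5.9e-05), while BGLU25 fell 5.47-fold (adjusted p = 0.000179).

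Of 160 transporters 21 rose (13.1%) and 3 fell (1.88%), 1 without PMA array 2 or any of the MA arrays, and the median log2 difference was 0.06. LOC_Os05g48300, a purine permease, was switched on from 7.21, 7.56 and 7.77 to 2343, 2510.0 and 2137, at least 232-fold (adjusted p = 0.000817). It was at 710.1 in SCP and 187 in TPA, where the 3 arrays had 233, 320 and 10.2. Of 22 potassium transporters of the HAK family 4 rose, 2 of them, HAK1 and HAK17, with calls that were lost without any 1 of the 6 arrays. HAK13 went from 7.73, 6.23 and 7.59 to 379, 406 and 553, at least 43.99-fold (adjusted p = 9.42e-07), and further to 1439 in SCP. TIP3-2, an aquaporin, rose from 20.9, 12.7 and 13.3 to 664, 585 and 556 (39.4-fold, adjusted p = 8.62e-07) and was back at 14.99 in SCP. PHT3, a phosphate transporter, rose 27.4-fold, from 13.02, 16.3 and 12.1 to 365, 368 and 392 (adjusted p = 2.39e-06), and ZIP4, a zinc transporter, 16.9-fold (adjusted p = 0.00011). SWEET14, a sugar exporter, was switched on from 8.78, 9.47 and 5.89 to 126, 114 and 119.6, at least 11.99-fold (adjusted p = 9.16e-06), and COPT1, a copper transporter, from 8.63, 5.26 and 5.32 to 183, 201 and 191, at least 19.2-fold (adjusted p = 1.43e-05). Of the 21 that rose, 10 had their highest mean in MA, a count that choosing genes that rose favours.

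Of 55 sugar and starch genes 6 rose (10.9%) and 2 fell (3.64%), 1 without MA array 1 or 3 or PMA array 1 or 2. SSS2A, a soluble starch synthase, had 17.8, 17.9 and 18.02 in PMA, arrays within a narrow range, and 1087, 1177 and 1176 in MA. It rose 64.00-fold (standard error of log2 0.14, adjusted p = 1.64e-08) and had 128 in SCP. CIN4, a cell wall invertase that splits sucrose outside the cell, rose from 39.8, 47.9 and 38.8 to 771, 782 and 793 (18.63-fold, adjusted p = 0.000133) and returned to 45.4 in SCP. An alpha-amylase, LOC_Os08g40930, rose 13.5-fold (adjusted p = 2.79e-05), TPP2, a trehalose-6-phosphate phosphatase, 4.47-fold (adjusted p = 3.69e-05) and HXK5, a hexokinase, 2.44-fold (adjusted p = 7.94e-05). A beta-amylase, LOC_Os03g04770, fell from 84.5, 138 and 179.8 to 14.2, 15.6 and 15.5 (8.49-fold, adjusted p = 0.000108).

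Hormone genes numbered 140, of which 12 rose (8.57%) and 8 fell (5.71%). The falls were 3 without MA array 1 or 2, 5 without MA array 3 or PMA array 2, and 4 without PMA array 1. The auxin response factors, which read auxin at target genes, gave 5 of the rises and 3 of the falls, of 20 genes. LOC_Os07g08530 was switched on from 4.88, 4.89 and 4.90 to 1324, 1107 and 978, at least 113-fold (adjusted p = 0.000192). Its neighbour LOC_Os07g08540 followed, from 4.36, 4.37 and 4.43 to 106, 121 and 154, at least 12.6-fold (adjusted p = 1.25e-08). Both were under 10 again in TPA, at 4.95 and 4.47. ARF1 was expressed in PMA, at 481, 535 and 377, and rose to 10394, 10372 and 10843 (22.9-fold, adjusted p = 2.43e-06), and ARF10 rose 7.68-fold (adjusted p = 0.000126). ARF2 fell 3.05-fold, from 4748, 7303 and 4831 to 1701, 1831 and 1896 (adjusted p = 0.000257). YUCCA1, which makes auxin, was switched off from 26.01, 79.5 and 30.6 to 11.2, 6.81 and 7.13 (4.89-fold, adjusted p = 0.00345), with PMA array 2 the highest and a call that was lost without PMA array 3 or any of the MA arrays and with signals under 10 set to 10. OsPID, a kinase that directs auxin transporters, went from 89.4, 220.4 and 56.1 to 10.3, 7.90 and 7.80 (12.1-fold lower, adjusted p = 0.000485), again with PMA array 2 the highest. PIN4, an auxin exporter, was switched on from 5.13, 5.15 and 5.21 to 75.2, 62.4 and 42.4, at least 5.84-fold (adjusted p = 5.55e-06). ACS2, which makes the ethylene precursor, was switched on at least 5.60-fold (adjusted p = 8.41e-05). Of 13 cytokinin response regulators 2 fell, 1 of them, RR24, with a call that was lost without MA array 1 or 2 or PMA array 1 or 3.

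Of 16 NAC genes 3 rose (18.8%), and of 21 AP2/ERF genes 1 rose, cap2, 4.82-fold (adjusted p = 0.000101). NAC45 was switched on from 6.04, 6.02 and 4.65 to 134, 151 and 141, at least 14.2-fold (adjusted p = 7.35e-05). LOC_Os10g27360 rose from 319, 152 and 301 to 8504, 8796 and 9611 (36.6-fold, adjusted p = 0.000912), a call that was lost without MA array 3 (adjusted p = 0.00512), and had 298 in SCP. Of 43 MYB and bHLH genes 5 rose, TDR among them, and 3 fell. The rises were 3 without PMA array 3 or any of the MA arrays, and the falls 1 without MA array 1 or 3 or PMA array 3. The MYB gene LOC_Os08g06370 rose from 197, 80.8 and 138 to 1294, 1134 and 1274 (9.48-fold, adjusted p = 0.000215) and was at 13.5 in SCP. Among 84 MADS-box and homeobox genes 4 rose (4.76%) and 6 fell (7.14%), 3 without PMA array 2 or any of the MA arrays. HOX15, a homeobox gene, rose from 29.98, 18.4 and 14.8 to 1282, 1231 and 1093 (59.6-fold, adjusted p = 0.000152), and MADS13, which rice expresses in ovules, was switched on at a low level, from 6.70, 8.18 and 6.72 to 54.7, 59.2 and 41.8, at least 5.14-fold (adjusted p = 1.22e-05).

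Some other factors fell, while 7 of the 11 markers of floral meristem and young organ identity were not called. MADS15, of floral meristem identity, went from 358, 329 and 507 to 51.7, 61.4 and 75.2 (6.30-fold, adjusted p = 7.64e-05), and Roc3, of the homeobox genes of the epidermis, from 347, 554 and 379 to 84.2, 76.5 and 91.9 (4.97-fold, adjusted p = 8.26e-05). The YABBY genes YAB5 and YAB4, of lateral organs, fell, YAB5 from 45.4, 75.9 and 56.9 to 6.91, 9.28 and 9.87, at least 5.81-fold (adjusted p = 1.63e-05), and YAB4 4.20-fold (adjusted p = 0.000356). Of 105 zinc finger genes 13 fell (12.4%) and 5 rose (4.76%). The CCCH type, which often binds RNA, had 6 of 50 lower and 2 higher, 1 without MA array 2 or 3. The largest change among them was a rise, that of OsC3H47. It had 16.4, 4.71 and 11.8 in PMA and 5802, 5450 and 5171 in MA (564-fold, adjusted p = 0.000189). This fold is approximate, since the PMA arrays lay near 10. OsC3H14 went from 1272, 1531 and 1446 to 517, 559.7 and 514 (2.67-fold, adjusted p = 7.22e-06) and OsC3H34 from 157, 211 and 155 to 35.1, 23.9 and 38.3 (5.42-fold, adjusted p = 0.000231). The C2H2 gene LOC_Os12g38950 rose from 20.1, 11.9 and 15.7 to 1031, 1328 and 1425 (80.5-fold, adjusted p = 8.33e-05) and was at 29.1 in SCP.

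Of 119 kinases 13 rose (10.9%) and 5 fell (4.20%). LOC_Os09g15700, a receptor-like kinase, rose from 42.8, 17.3 and 33.96 to 3635, 3554 and 3776 (125-fold, adjusted p = 5.34e-05) and was at 15.8 in SCP. CPK22, a calcium-dependent kinase, and MPK17, a MAP kinase, came on at a low level and had their highest means later. CPK22 had 4.81, 4.95 and 5.04 in PMA and 80.8, 76.9 and 61.9 in MA (at least 7.27-fold, adjusted p = 2.07e-08) and reached 14571 in TPA. MPK17 had 8.62, 10.2 and 7.68 and then 144, 149 and 111 (15.3-fold, adjusted p = 1.27e-06) and reached 8096 in TPA. CIPK6, of the kinases that calcineurin B-like calcium sensors bind, fell from 5911, 5228 and 5912 to 1892, 1736 and 1745 (3.17-fold, adjusted p = 3.49e-06).

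Redox and stress genes included glutaredoxins, small thiol enzymes that reduce disulphides, in both directions. Of the 84 genes of this class 10 rose (11.9%), 6 without any of the MA arrays, and 3 fell (3.57%). GRXC1 was switched off from 129, 164 and 106 to 8.51, 7.33 and 7.36, at least 13.1-fold (adjusted p = 3.62e-07). GRXC7 rose from 262, 211 and 193 to 8557, 7505 and 7693 (35.9-fold, adjusted p = 6.22e-05) and GRXS2 from 31.1, 26.7 and 40.5 to 387, 449 and 354 (12.2-fold, adjusted p = 1.82e-06). Of 82 chaperone and heat shock genes 4 rose and 6 fell, 3 without MA array 1 or 2. HSP18.6, a small heat shock protein, had 4069, 10416 and 3338 in PMA, with array 2 far above the others, and 95.1, 102 and 81.3 in MA. It fell 56.4-fold (log2 difference -5.82, standard error 0.53, adjusted p = 9.76e-05), and by 5.319 on the log2 scale without PMA array 2. HSF03, a heat shock factor, went from 1687, 1378 and 984 to 79.8, 83.7 and 103 (14.9-fold lower, adjusted p = 0.000992), a call that was lost without MA array 1 or 2. LOC_Os07g29390, a peptidyl-prolyl isomerase that helps proteins fold, rose from 1064, 950.2 and 1412 to 7726, 7274 and 7748 (6.73-fold, adjusted p = 1.32e-05). Among 40 proteases 6 rose and 2 fell, 1 without MA array 1 or 3 or PMA array 2 or 3. The serine carboxypeptidase LOC_Os10g01134 rose from 30.6, 34.4 and 33.6 to 1644, 1543 and 1872 (51.2-fold, adjusted p = 1.78e-05). The gamma-glutamyltranspeptidase LOC_Os04g38450, which splits glutathione, rose from 97.7, 37.04 and 49.9 to 2393, 2187 and 2032 (38.9-fold, adjusted p = 4.06e-05).

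Of 12 photosynthesis genes 2 rose (16.7%), 1 without any 1 array other than PMA array 3, with a median log2 difference of 1.80. A chlorophyll-binding protein of the antenna, LOC_Os01g64960, was switched on from 12.6, 8.66 and 8.39 to 196, 198 and 225 (21.2-fold, adjusted p = 1.36e-06). CAB2R, of the same family, had 81.02, 77.1 and 869.8 in PMA, where array 3 was near the MA level, and 1059, 1129 and 1106 in MA, and was not called (adjusted p = 0.236). Of seed storage genes, named after their values were seen, RA5, a seed albumin, went from 74.1, 66.3 and 150.4 to 5.28, 5.20 and 5.29, at least 9.04-fold (adjusted p = 9.6e-06), and a prolamin, LOC_Os07g10570, from 64.2, 62.99 and 90.6 to 8.45, 8.72 and 8.94, at least 7.15-fold (adjusted p = 5.06e-07). These storage genes belong to families of close copies, and the probe sets may not separate the members.

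Of the 450 probe sets switched on, 318 had their highest mean of the 4 stages in MA, a count that the choice of probe sets high in MA favours. In the later stages, 188 were at or under 10 again in both SCP and TPA, 217 were over 10 in SCP and 124 in TPA. SCP array 3 was the highest SCP array in 261 of the 450, and 193 were over 10 in SCP without it. PUB73 had 4.33, 6.61 and 93.6 in the 3 SCP arrays. Of the 222 switched off, 146 were at or under 10 in both later stages, and 54 were over 10 in SCP and 50 in TPA. AGO14, LOC_Os07g08540 and LOC_Os07g39950 were back under 10 in both later stages, and LOC_Os05g48300, with 187 in TPA, was not. Of the 917 probe sets of the pollen mother cell list, 38 were switched on and 14 off between PMA and MA. Over its 788 probe sets with a mean over 10 in PMA or MA, 18.5% rose and 12.3% fell, against 7.65% and 7.01% of all probe sets over 10.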

How the data were processed

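RNA of 4 anther stages was measured on 12 Affymetrix rice arrays, with 3 replicates per stage, called biological replicates, each from bulked anthers. Nothing more is given on how separate they were, so that p-values measure only the spread between these samples. The authors read the scans with GCOS and deposited GC-RMA intensity on a linear scale, background-corrected and normalized together with arrays of other tissues that were not used here. The number of arrays limits the precision. The file holds 57381 probe sets, of which 123 controls were left out.

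Intensities were turned to log2 and compared between MA and PMA with lmFit and eBayes of limma 3.58.1 (R 4.3.3), with 12 arrays in 1 fit and Benjamini-Hochberg adjustment. The limits for a call were 0.005 for the adjusted p and 2 for the fold. Names and descriptions came from GEO's platform annotation, RefSeq and the additional tables of the study, whose own comparisons were not used; the genome build of the array annotation is not given in the sources used here. Classes used the brightest probe set of each gene over the 6 arrays. The genes to name were up to 12 with the largest changes each way and up to 4 per class with the smallest adjusted p. Not all of these are described above. Among those left out are the changes of LOC_Os04g33150 (693-fold higher), CYP703A3 (94.2-fold higher) and LOC_Os11g33000 (at least 24.4-fold lower). Other members were named after their values were seen. Members and lists were chosen with earlier results of these data known. The fit was tested on simulated data. Replicate numbers did not pair the arrays. Promoter sequences were not used here.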

Additional observations from a re-analysis of the deposited data

How the results depend on the processing

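No result changed its direction among the 317 called probe sets examined under the alternatives, and 108 of them kept the call in all of these. The t-test, the fit of 6 arrays, the replicate block, the subsets of probe sets and the limit of 0.05 use the same log2 difference. No change of direction was possible under these. The calls lost were 184 with an equal-variance t-test on the 6 arrays, 74 with the 6 arrays alone in limma, 46 with a pseudocount of 16, 27 with signals under 10 set to 10, 14 after quantile normalization, 9 after a shift to a common median and 55 to 79 when 1 array was left out. The t-test gave 903 probe sets higher, 443 lower and 60 switched off; an adjusted p of 0.05 gave 2760 lower; and 1 probe set per gene gave 982 lower, 203 switched on and 79 switched off, since fewer were tested. When 1 array was left out, 1047 to 1529 were lower, with 1047 without MA array 1 and 1087 without MA array 2. The number switched off was 136 with a pseudocount of 16, 125 with the 6 arrays alone, 137 with signals under 10 set to 10 and 128 when every array had to meet the limits. Limits of 10 and 50 gave 265 on and 95 off. With the replicate number as a block, 1566 probe sets were higher, 1290 lower, 418 switched on and 185 off; the deviations of same-numbered PMA and MA arrays correlated at -0.016 to 0.020, so that they share only a number.

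With the t-test, class counts were 2 meiotic, 3 small RNA and 4 zinc finger genes lower, and 4 pollen wall, 7 cell wall and 6 cytochrome P450 genes higher. It called 0 DNA replication genes lower, 27 at an unadjusted p under 0.05. That count was 14 with only probe sets over 10, 3 with the 6 arrays alone, 5 with signals under 10 set to 10, 16 at an adjusted p of 0.05, and 5 to 10 when 1 array was left out. At an adjusted p of 0.05, 16 pollen wall genes rose. The numbers of ubiquitin and transporter genes that rose stayed within 1.5 times in all alternatives, and in all 8 of 54 class counts did. Other causes were not tested. The count of switched on probe sets over 10 in SCP without SCP array 3 was chosen after seeing the data.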
